A study of Mus musculus with 28 samples.

Results

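The left ventricle of newborn mice was compared 3 days after a myocardial infarction (MI) on postnatal day 1 and 3 days after a sham operation on the same day, when the animals were 4 days old. The comparison takes in 8 of the 28 libraries of the series, chosen by the treatment and age in their labels: 4 of hearts with MI at day 1 (1d-MI + 3) and 4 of hearts sham-operated at day 1 (1d-SHAM + 3). All were Hsd:ICR(CD-1) mice, described as male in the study's methods, the infarction was made by ligating the left anterior descending coronary artery, and the labels give the tissue of every library as left ventricular wall of the remote zone, away from the infarct. RNA of 1 sample gave 1 library of total RNA, and the number of reads on each of 45318 genes was deposited. Libraries made in the same way 3 days after MI or sham operation at day 7 (7d-MI + 3 and 7d-SHAM + 3, 4 each, 10 days old at collection) entered the same model and served to test whether the effect of MI differed with the age at operation.

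A mouse heart can rebuild lost muscle for a few days after birth, and this capacity fades within the first week. Over the same days cardiomyocytes leave the cell cycle, exchange fetal for adult sarcomere proteins and turn from glucose to fatty acids as their main fuel. An infarct raises the load on the muscle that survives, draws in neutrophils and monocytes and sets fibroblasts to deposit matrix.

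Counts summed to between 33077962 and 45378796 in 1d-MI + 3 and between 38799688 and 48612405 in 1d-SHAM + 3. The sham libraries fell into pairs by the number that opens their titles, 1078 (replicates 1 and 2) and 1103 (replicates 3 and 4), and the pairs differed in ways that the label does not explain. Olfactory, vomeronasal and taste receptor genes, which ventricular muscle should not use, took 24.4 to 157.5 CPM (the count of a gene scaled to the library total) in 1d-MI + 3, against 46.3 and 49.7 CPM in the 1078 pair and only 3.09 and 4.0 CPM in the 1103 pair. For single genes and gene lists below, CPM uses a library total adjusted by TMM scaling. Satellite-like predicted genes took 0.155 to 1.56% of counts in 1d-MI + 3, against 0.384 and 0.415% in the 1078 pair and 0.000755 and 0.00112% in the 1103 pair, while the small nuclear RNA *Rn7sk* took 0.967 to 1.53%, against 1.07 and 1.52% and then 2.57 and 3.09%. By these measures the MI libraries resembled the 1078 pair, so every difference below was also computed against each pair. No title number occurred in both groups (1059 and 1086 in 1d-MI + 3), so whatever the number stands for and the group cannot be told apart. Of 6 library measures, reads on ribosomal RNA loci separated the groups, at 0.104 ± 0.0351% of counts in 1d-MI + 3 and 0.0401 ± 0.00632% in 1d-SHAM + 3 (exact two-sided permutation test, p = 0.0286, the smallest that 4 against 4 libraries can give). Adjusted over the 6 measures this was 0.171, the smallest value 1 separated measure can reach, so the adjusted test could not have passed for it, and the part of this measure in the results was not tested. The labels do not say whether the samples of a group came from separate litters.

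**Figure D1:**
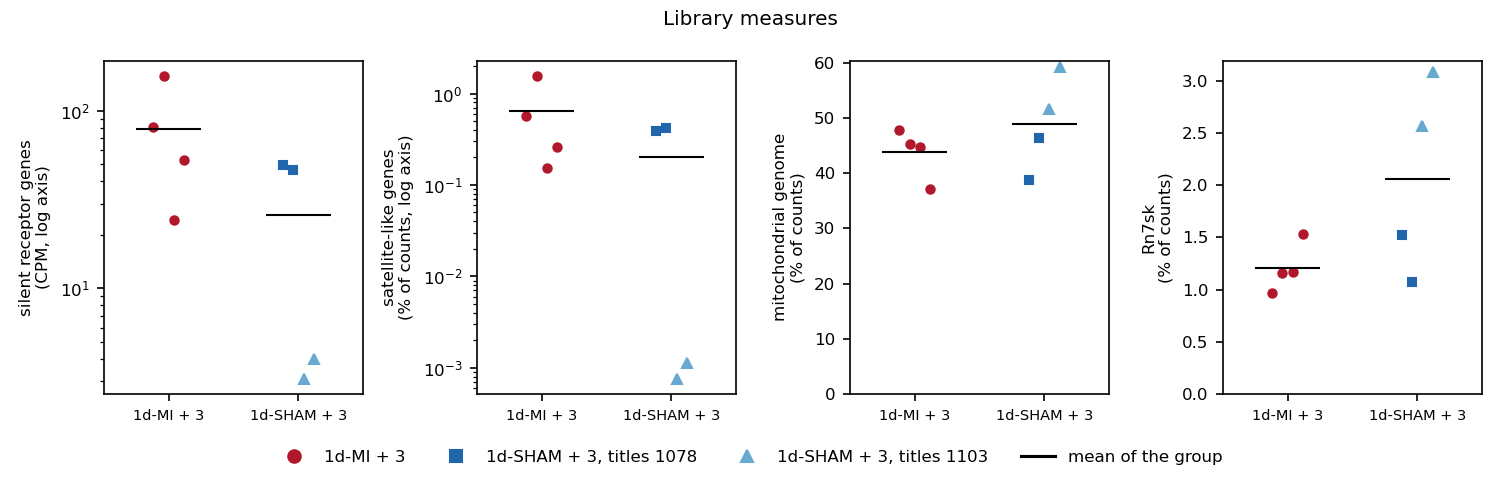
Measures of each library (y axes: receptor-gene reads in CPM and satellite-like genes in percent of counts, both on log axes; mitochondrial genome and Rn7sk in percent of counts) in 1d-MI + 3 and 1d-SHAM + 3 (x axes); points are libraries, squares and triangles the sham pairs, and lines the group means. The 1103 pair lies below every other library for receptor and satellite-like reads and above every other library for Rn7sk, at 2.57 and 3.09%.

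The ventricular markers of the tissue were present. *Myl2*, the regulatory light chain of ventricular myosin, was present at 4954, 3680.0, 5437 and 4915 CPM in 1d-MI + 3, against 5967, 4898, 7992 and 7018 CPM in 1d-SHAM + 3. *Myh6*, the alpha heavy chain of cardiac myosin, was present at 4761, 2591, 4270.0 and 3036 CPM in 1d-MI + 3, against 4047, 4786, 4592 and 4181 CPM in 1d-SHAM + 3. Both ranges overlapped between the groups and neither gene passed the test (adjusted p = 0.085 and 0.48). Of the 10 cardiomyocyte markers only *Tnni3* passed, and their summed level ran between 21870.0 and 30960.0 CPM in 1d-MI + 3, against 35280.0 to 38670.0 CPM in 1d-SHAM + 3. The ranges of the sums did not overlap, and their part in the results below was not tested. In whole tissue, fewer cells of a type and less RNA per cell cannot be told apart.

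The remote wall 3 days after infarction had higher levels of some muscle stress genes and of phagocyte, alarmin and matrix genes. Lower levels were found for single vessel, membrane and metabolic genes, some of them chosen after their values were seen. Of 20345 genes expressed enough to test, 834 were higher (4.10%) and 888 lower (4.36%) in 1d-MI + 3, 8.46% in all, by edgeR's quasi-likelihood test at a Benjamini-Hochberg adjusted p under 0.05; 5581 had an unadjusted p under 0.05. Every adjusted p below comes from this test, and the value printed before it is the log2 fold change of 1d-MI + 3 over 1d-SHAM + 3. Most of these genes also passed against the 1103 pair: 701 of the 834 and 710 of the 888 did so, but only 168 and 128 passed against the 1078 pair. None of the 1722 had the opposite sign against either pair. The 2 pairs together are the sham group of the main test, so the choice of these genes made an opposite sign unlikely. Every MI library lay above every sham library for 6.52% and below every sham library for 5.66% of all genes tested. Against each pair separately and with all 4 sham libraries, 142 genes were higher (0.698%) and 84 lower (0.413%). These 226 genes are called robust to the sham pair below. Counts of list members given below are to be read beside the 4.10% higher and 4.36% lower of all genes tested.

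**Figure D2:**
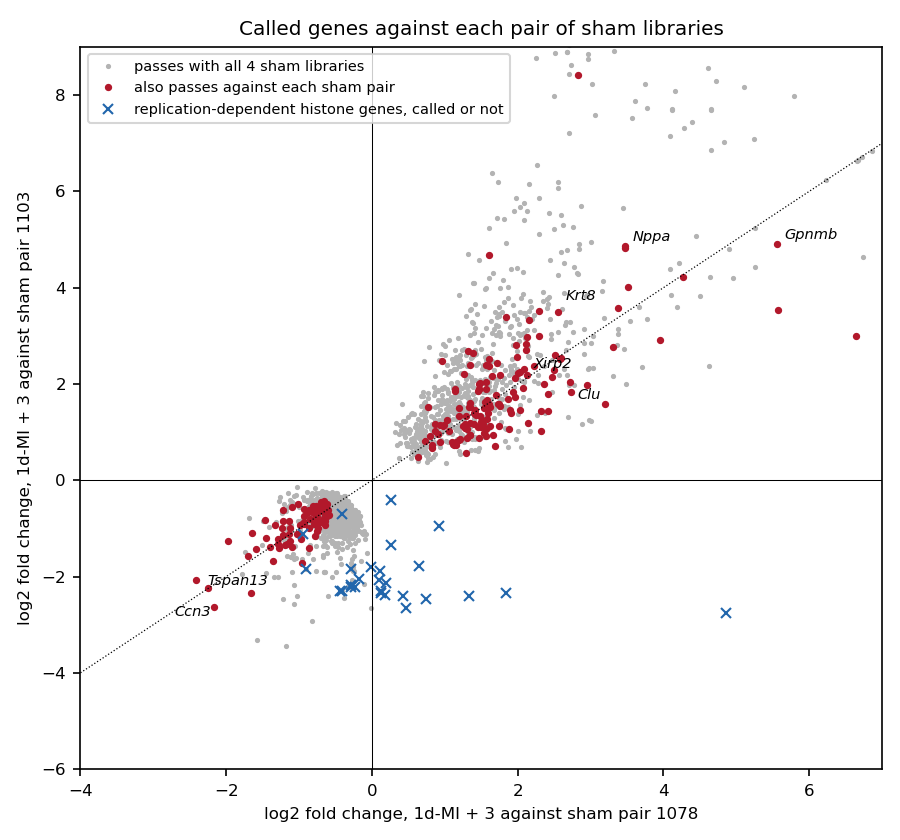
Log2 fold change of 1d-MI + 3 against the 1078 pair (x axis) and against the 1103 pair (y axis) for the 1705 of 1722 changed genes that lie within the axes; red points are genes that pass against each pair, grey points the others, and blue crosses the replication-dependent histone genes, whether or not they passed. Red points lie near the dotted line of equal values, many grey points lie away from it, and the histones lie below 0 on the y axis and on both sides of 0 on the x axis.

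The number of genes that passed depended on how the spread was estimated and on which libraries entered. With the title number as a random effect in limma-voom (correlation 0.202) 121 genes were higher and 134 lower. With the 8 libraries alone 118 were higher and 43 lower, and with the receptor-gene level as a covariate 75 were higher and 53 lower. Leaving out 1 library gave 379 to 1945 higher and 248 to 1646 lower genes: 398 and 261 without 1d-MI + 3 replicate 1, 379 and 248 without replicate 2, 1673 and 1646 without replicate 3, 390 and 332 without replicate 4, 1945 and 1222 without 1d-SHAM + 3 replicate 2, 385 and 333 without replicate 3, and 398 and 367 without replicate 4. The share of higher genes among those that passed was 48.43% with TMM scaling, 60.0% with relative log expression and 78.49% with upper-quartile scaling, which placed the median log2 fold change of all genes at 0.06, 0.11 and 0.21. A set of 64 genes, 38 higher (0.187%) and 26 lower (0.128%), passed in the main test and under each of 22 alternatives that gave them a value; this rule was chosen after the values were seen. Among them were *Nppa*, *Xirp2*, *Sprr1a*, *Clu*, *Ildr2*, *S100a8*, *Lyz2*, *Il1r1*, *Lbp*, *Tlr7*, *Bgn*, *Fn1*, *Lox*, *Col1a1*, *Cthrc1*, *Krt8*, *Myof*, *Synm*, *Lrp1*, *Eno2*, *Nkd2*, *Gpx3* and *Bdh1* on the higher side, and *Ccn3*, *Tspan13*, *Tppp*, *C1qtnf9*, *Fbp2*, *Sema3c*, *Mfap5*, *Steap4*, *Rgs6*, *Fmo1*, *Jam2*, *Bcl6b* and *Lepr* on the lower side.

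*Nppa*, *Xirp2* and *Sprr1a*, which cardiomyocytes are known to raise under stress, were much higher in the infarcted hearts. *Nppa*, the gene of atrial natriuretic peptide, a hormone that ventricular muscle makes before birth and again under load (chromosome 4, 148000722 to 148002079 on GRCm38), stood at 3752, 2238, 2678 and 4155 CPM in 1d-MI + 3, against 306, 263, 198 and 29.4 CPM in 1d-SHAM + 3. Every MI library lay far above every sham library, and the sham values themselves spread widely, with replicate 4 far below the rest. The log2 change was 4.01 (adjusted p = 0.0028, SE 0.59), with 3.48 against the 1078 pair (adjusted p = 0.0013) and 4.82 against the 1103 pair (adjusted p = 0.0039). The antisense gene *Gm13054* overlaps it and moved with it, at 2950.0 ± 812 CPM in 1d-MI + 3 and 182 ± 114 CPM in 1d-SHAM + 3 (mean ± SD, n = 4 each, as for all means below). Whether the counting used strand is not given in the sources used here, so reads of the overlapping genes cannot be told apart. *Xirp2*, an actin-binding protein of the intercalated disc (chromosome 2, 67446002 to 67526614), stood at 1038, 512, 1030.0 and 1041 CPM in 1d-MI + 3, against 230.1, 183, 185 and 70.1 CPM in 1d-SHAM + 3. All MI libraries lay above all sham libraries, MI replicate 2 standing below the other MI libraries and sham replicate 4 below the other shams, and the log2 fold change was 2.44 (adjusted p = 2.8e-04, SE 0.30). *Sprr1a*, a small proline-rich protein that stressed cardiomyocytes switch on (chromosome 3, 92483952 to 92485895), stood at 3.52, 3.48, 2.70 and 3.62 CPM in 1d-MI + 3 and had no count in any 1d-SHAM + 3 library (adjusted p = 3.9e-07). Set against a floor of 3 counts over the sham group (0.0174 CPM) it was at least 192-fold higher.

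The 250 bases before the RefSeq start of these genes (build GRCm38.p6, 5′ to 3′ on the strand of the gene) are shown for the 3 muscle genes just described, which were higher in every MI library. Capitals mark matches to TGANTCA, the AP-1 motif, which reads the same on both strands.
Nppa, chr4:148000472-148000721, plus strand: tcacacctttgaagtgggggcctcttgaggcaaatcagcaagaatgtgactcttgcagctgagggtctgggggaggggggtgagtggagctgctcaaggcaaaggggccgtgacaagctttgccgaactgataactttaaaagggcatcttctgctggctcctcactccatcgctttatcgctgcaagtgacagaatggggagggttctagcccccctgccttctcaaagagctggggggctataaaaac
Xirp2, chr2:67445752-67446001, plus strand: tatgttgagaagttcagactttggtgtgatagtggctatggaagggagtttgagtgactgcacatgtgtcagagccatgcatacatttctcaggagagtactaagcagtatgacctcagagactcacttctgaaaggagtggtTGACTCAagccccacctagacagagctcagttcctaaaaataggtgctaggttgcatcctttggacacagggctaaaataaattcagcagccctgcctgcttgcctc
Sprr1a, chr3:92485882-92486131, minus strand: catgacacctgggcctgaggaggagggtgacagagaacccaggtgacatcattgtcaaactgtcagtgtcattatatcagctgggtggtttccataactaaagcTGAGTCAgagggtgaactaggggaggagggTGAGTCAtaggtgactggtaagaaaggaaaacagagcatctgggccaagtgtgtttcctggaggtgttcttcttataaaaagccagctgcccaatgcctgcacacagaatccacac
Counting back from the start, the AP-1 letters began at position -107 in *Xirp2* and at -146 and -116 in *Sprr1a*, and none were found in *Nppa*. AP-1 letters occurred in 6.75% of 32851 mouse promoter windows of the same length. AGATAA (a form of the GATA motif, in 9.99% of windows), CATTCC (MCAT, 12.6%) and the NF-kB motif (17.6%) were searched on both strands. These letters were found in none of the 3 windows. Other forms of the GATA motif were not searched, among them TGATAA in the *Nppa* window and TGATAG in the *Xirp2* window. A match is a description of the letters and not of a bound site. Of the AP-1 subunit genes, *Junb* and *Jun* went in opposite directions. *Junb* stood at 2.81, 3.53, 2.03 and 4.19 CPM in 1d-MI + 3, against 0.975, 1.59, 1.20 and 1.63 CPM in 1d-SHAM + 3, without overlap, with a log2 fold change of 1.23 (adjusted p = 0.0050, SE 0.24). *Jun* stood at 31.0, 25.9, 46.4 and 26.4 CPM in 1d-MI + 3, against 57.6, 51.7, 64.9 and 69.6 CPM in 1d-SHAM + 3, also without overlap but lower in MI, at -0.91 (adjusted p = 0.0030, SE 0.16). Both passed against each sham pair.

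Other load-responsive genes did not move as a block. Of 18 genes of hypertrophy and wall stress 3 were higher and 1 lower, with a median log2 fold change of 0.50 where the median over all tested genes was 0.06. *Nppb*, the B-type sister hormone of *Nppa*, stood at 309, 175, 208 and 423 CPM in 1d-MI + 3, against 258, 159.6, 94.4 and 46.6 CPM in 1d-SHAM + 3, with overlapping groups (adjusted p = 0.19); it had 0.39 against the 1078 pair (adjusted p = 0.70) and 1.99 against the 1103 pair (adjusted p = 0.028). *Ankrd1*, a stretch-responsive partner of titin, had 0.56 (adjusted p = 0.28) with 0.08 against the 1078 pair (adjusted p = 0.89) and 1.28 against the 1103 pair (adjusted p = 0.028). *Fhl1*, a LIM protein of the sarcomeric stretch sensor, had 0.93 (adjusted p = 0.021, SE 0.23), with overlapping groups, and was not significant without 1d-MI + 3 replicate 1 or 4 or 1d-SHAM + 3 replicate 3 or 4 (adjusted p 0.060 to 0.074). *Clu*, the extracellular chaperone clusterin (chromosome 14, 65968483 to 65981547), stood at 64.4, 93.6, 65.7 and 109.6 CPM in 1d-MI + 3, against 13.3, 11.7, 20.9 and 19.9 CPM in 1d-SHAM + 3. The groups were well apart, and the log2 fold change was 2.34 (adjusted p = 4.1e-05, SE 0.24). *Ildr2*, a membrane protein of the immunoglobulin family (chromosome 1, 166254139 to 166316823), stood at 14.5, 9.63, 13.5 and 17.5 CPM in 1d-MI + 3, against 3.88, 4.19, 3.46 and 2.60 CPM in 1d-SHAM + 3. The log2 change was 1.96 (adjusted p = 4.1e-05, SE 0.21), again without overlap. *Synm*, the intermediate filament protein synemin, averaged 14.5 ± 4.08 CPM in 1d-MI + 3 and 4.54 ± 2.00 CPM in 1d-SHAM + 3, at 1.67 (adjusted p = 0.0024, SE 0.27).

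Sarcomere genes changed in both directions. *Myh7*, the beta heavy chain of myosin that rodent ventricles use before birth (chromosome 14, 54970684 to 54994626), stood at 185, 319, 244 and 389 CPM in 1d-MI + 3, against 416, 678, 918 and 951 CPM in 1d-SHAM + 3. Every MI library lay below every sham library, the closest being MI replicate 4 and sham replicate 1, and the log2 fold change was -1.38 (adjusted p = 0.0030, SE 0.24) with -0.95 against the 1078 pair (adjusted p = 0.041) and -1.71 against the 1103 pair (adjusted p = 2.3e-05). *Tnni1*, the fetal troponin I, had -1.01 (adjusted p = 0.028, SE 0.26), with overlap, and *Tnni3*, the adult cardiac troponin I, had -0.65 (adjusted p = 0.031, SE 0.18). Against the 1078 pair they had -0.41 (adjusted p = 0.39) and -0.38 (adjusted p = 0.32). The change of *Tnni1* was not significant without 1d-MI + 3 replicate 1, 2 or 4 or 1d-SHAM + 3 replicate 3 or 4 (adjusted p 0.059 to 0.096), and that of *Tnni3* without 1d-MI + 3 replicate 1, 2 or 4 or 1d-SHAM + 3 replicate 3 or 4 (adjusted p 0.057 to 0.11). In the other direction *Tnnt3*, the troponin T of fast skeletal muscle, stood at 3.23, 3.24, 2.88 and 4.26 CPM in 1d-MI + 3, against 1.12, 1.04, 0.842 and 0.666 CPM in 1d-SHAM + 3. *Myl1*, a light chain of fast and embryonic muscle, stood at 12.6, 11.9, 8.16 and 15.4 CPM in 1d-MI + 3, against 4.32, 3.93, 5.89 and 4.73 CPM in 1d-SHAM + 3. Both were without overlap, with log2 fold changes of 1.88 (adjusted p = 0.0035, SE 0.34) and 1.35 (adjusted p = 0.0040, SE 0.25), and both passed against each pair. *Myl7*, the atrial light chain, stood at 3.44, 3.62, 3.79 and 5.98 CPM in 1d-MI + 3, against 1.23, 0.613, 2.26 and 1.87 CPM in 1d-SHAM + 3. It had 1.5 (adjusted p = 0.031, SE 0.41), and was not significant without 1d-MI + 3 replicate 1, 2 or 4 or 1d-SHAM + 3 replicate 1 or 4 (adjusted p 0.050 to 0.10). *Myh3*, embryonic myosin, had 3.14 (adjusted p = 0.027, SE 0.81) with overlapping groups, and was not significant without 1d-MI + 3 replicate 1 or 2 or 1d-SHAM + 3 replicate 1, 3 or 4 (adjusted p 0.060 to 0.11). Of 9 atrial markers tested *Nppa* and *Myl7* passed, and Sln was too low to test; the list summed to 2267 to 4188 CPM in 1d-MI + 3, against 53.2 to 337 CPM in 1d-SHAM + 3. *Nppa* alone made up most of that sum, and the median of the list was 0.68, with 3 of 9 members negative. Of 12 tested skeletal muscle markers 2 were higher and 0 lower, with sums of 445 to 799 CPM in 1d-MI + 3, against 597 to 1447 CPM in 1d-SHAM + 3. The median of this list was 1.97 (1.26 against the 1078 and 3.28 against the 1103 pair), with 11 of 12 members positive. The part of atrial or skeletal muscle in these values was not tested. Of 26 adult sarcomere and maturation genes 0 were higher and 4 lower (median -0.48, and -0.22 against the 1078 pair).

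**Figure D3:**
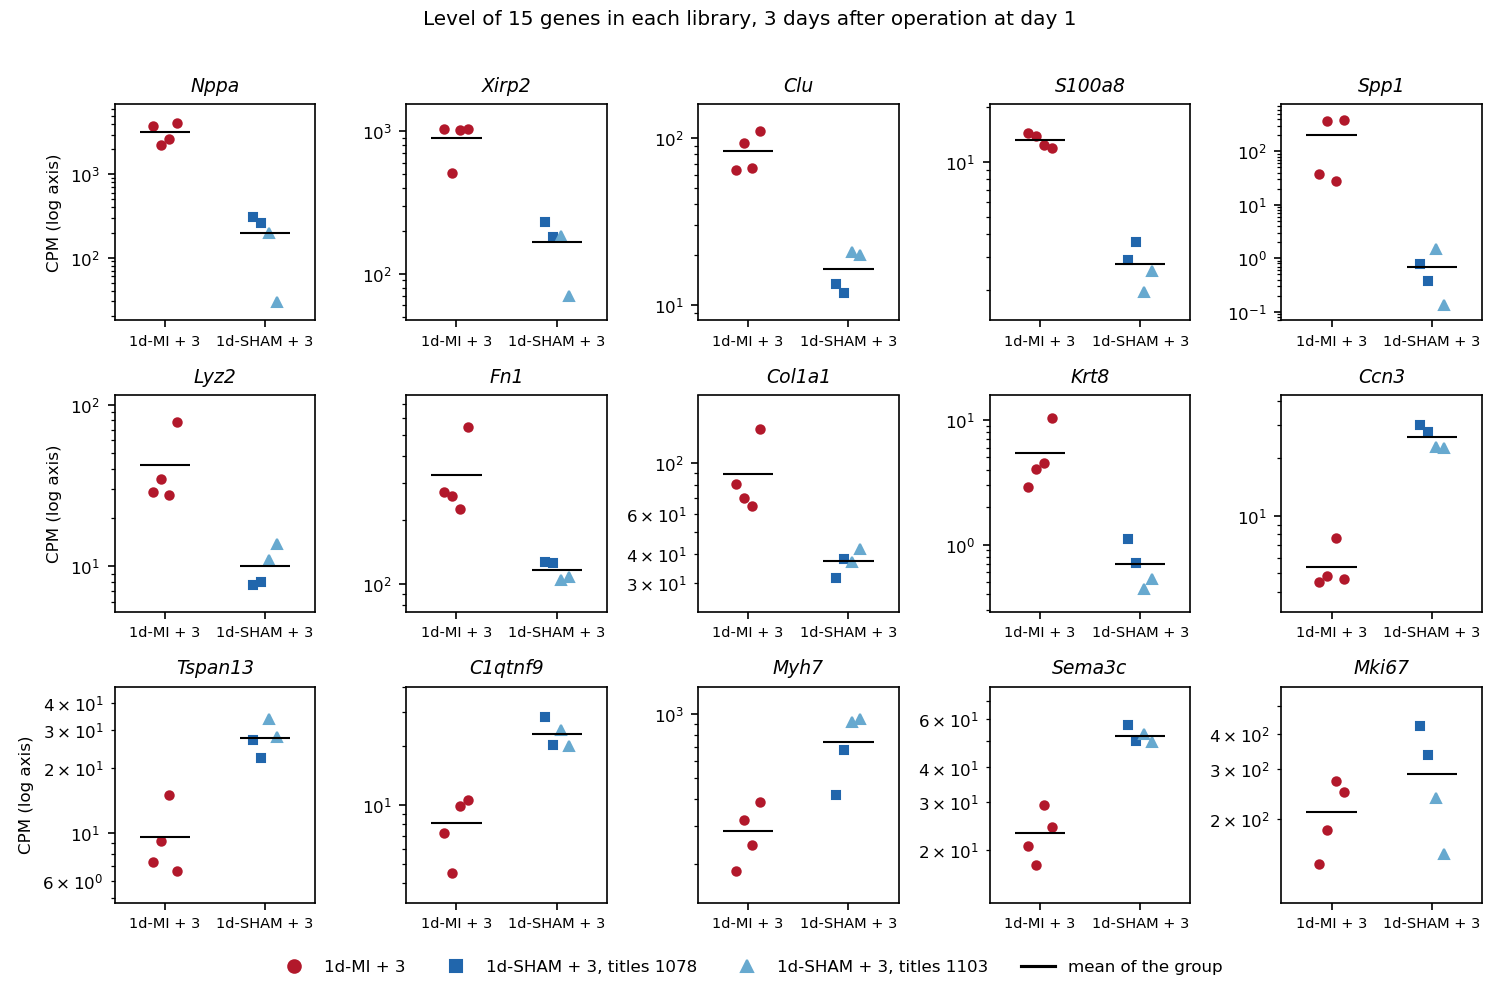
Level in CPM (y axes, log scale) of 15 genes in each library of 1d-MI + 3 and 1d-SHAM + 3 (x axes); points are libraries, dark squares the 1078 and light triangles the 1103 sham pair, and lines the group means. Apart from Mki67, whose groups overlap, the 4 MI libraries lie on 1 side of all 4 sham libraries in every panel.

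Phagocyte genes rose steeply and unevenly. *Spp1*, osteopontin, a secreted protein of activated macrophages (chromosome 5, 104435118 to 104441050), stood at 38.3, 364, 27.5 and 392 CPM in 1d-MI + 3, against 0.776, 0.381, 1.51 and 0.133 CPM in 1d-SHAM + 3. MI replicates 2 and 4 were far above replicates 1 and 3, yet even the lowest was far above every sham library, and the log2 fold change was 8.14 (adjusted p = 0.0035, SE 1.20). *Gpnmb*, a membrane glycoprotein of phagocytes loaded with debris, stood at 12.5, 36.0, 3.24 and 35.7 CPM in 1d-MI + 3, against 0.319, 0.592, 0.930 and 0.466 CPM in 1d-SHAM + 3. It was again highest in MI replicates 2 and 4 and without overlap, with 5.23 (adjusted p = 0.0030, SE 0.77) and 5.56 against the 1078 pair (adjusted p = 0.043) and 4.90 against the 1103 pair (adjusted p = 0.014). *Lyz2*, lysozyme of macrophages and neutrophils, stood at 29.0, 34.7, 27.6 and 78.0 CPM in 1d-MI + 3, against 7.66, 8.06, 10.9 and 13.7 CPM in 1d-SHAM + 3. The log2 change was 2.08 (adjusted p = 0.0035, SE 0.34) and it passed against each pair. Several further genes of the same cells were higher without overlap and passed against the 1103 pair but not the 1078 pair, with positive values against both: *Lgals3* (galectin-3) at 4.15 (adjusted p = 0.011, SE 0.81), *Plek* (pleckstrin, a signalling protein of blood cells) at 2.5 (adjusted p = 0.012, SE 0.50), *Msr1* (a scavenger receptor) at 2.38 (adjusted p = 0.012, SE 0.48), and *Arg1* (arginase of repair macrophages) at 4.95 (adjusted p = 0.0051, SE 0.83), with no count in the 1103 pair. *Lgals3* had 4.51 against the 1078 pair (adjusted p = 0.078) and 3.82 against the 1103 pair (adjusted p = 0.018), *Plek* 2.48 against the 1078 pair (adjusted p = 0.12) and 2.5 against the 1103 pair (adjusted p = 0.040), and *Msr1* 2.36 against the 1078 pair (adjusted p = 0.12) and 2.38 against the 1103 pair (adjusted p = 0.040). Against the 1078 pair *Arg1* had 4.09 (adjusted p = 0.067). *Ccl9*, a chemokine, had 2.48 (adjusted p = 0.017, SE 0.54), *Il1rn*, the antagonist of the interleukin-1 receptor, 4.84 (adjusted p = 0.024, SE 1.12), and *Fcgr1*, the high-affinity receptor for IgG, 2.44 (adjusted p = 0.012, SE 0.52). *Ccl9* and *Il1rn* passed against neither pair alone, and *Fcgr1* had 2.27 against the 1078 pair (adjusted p = 0.17). *Ccl9* was not significant without 1d-MI + 3 replicate 2 or 1d-SHAM + 3 replicate 3 or 4 (adjusted p 0.050 to 0.058), *Il1rn* without 1d-MI + 3 replicate 2 or 4 or 1d-SHAM + 3 replicate 1, 3 or 4 (adjusted p 0.054 to 0.068), and *Fcgr1* without 1d-SHAM + 3 replicate 3 or 4 (adjusted p = 0.053).

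Markers of macrophages and of recruited monocytes were higher in part. Of 12 macrophage markers 3 were higher (*Lyz2*, *Fcgr1* and *Adgre1*), with a median of 0.69 and a summed level of 75.1 to 174 CPM in 1d-MI + 3, against 47.2 to 66.7 CPM in 1d-SHAM + 3. Negative values were found for 2 of the 12, down to -1.05, and only *Lyz2* passed against each sham pair. *Adgre1*, F4/80, stood at 4.23, 4.18, 4.70 and 14.1 CPM in 1d-MI + 3, against 2.81, 2.62, 2.88 and 4.16 CPM in 1d-SHAM + 3. MI replicate 4 alone was far above the others, MI replicate 2 barely exceeded sham replicate 4, and the log2 fold change of 1.14 (adjusted p = 0.047, SE 0.34) lost significance without 1d-MI + 3 replicate 4 or 1d-SHAM + 3 replicate 1, 2, 3 or 4 (adjusted p 0.074 to 0.16). *Csf1r*, the receptor that keeps macrophages alive, overlapped (adjusted p = 0.062). Of 10 recruited monocyte markers 4 were higher, among them *Spp1*, *Arg1* and *Ccr2*, with a median of 2.09, and their sum ran between 163 and 592 CPM in 1d-MI + 3, against 121 to 162 CPM in 1d-SHAM + 3. *Ccr2*, the receptor that calls monocytes out of the marrow, stood at 3.56, 4.42, 8.75 and 21.0 CPM in 1d-MI + 3, against 3.07, 3.57, 1.86 and 2.00 CPM in 1d-SHAM + 3. MI replicates 3 and 4 were high and MI replicate 1 lay below sham replicate 2, with 1.84 (adjusted p = 0.038, SE 0.50) that was not significant without 1d-MI + 3 replicate 4 or 1d-SHAM + 3 replicate 1, 3 or 4 (adjusted p 0.075 to 0.13). The part of the number of these cells in the gene values was not tested.

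Neutrophil genes were low but separated. *S100a8*, the alarmin subunit calgranulin A (chromosome 3, 90668978 to 90670035), stood at 14.3, 13.9, 12.4 and 11.9 CPM in 1d-MI + 3, against 2.89, 3.64, 1.95 and 2.53 CPM in 1d-SHAM + 3. The MI values lay close together, their mean 4.77 times that of the sham values, with a log2 fold change of 2.25 (adjusted p = 4.9e-06, SE 0.20) and 1.99 against the 1078 pair (adjusted p = 2.9e-05) and 2.56 against the 1103 pair (adjusted p = 7.8e-07). Its partner *S100a9* stood at 6.43, 4.13, 4.61 and 4.15 CPM in 1d-MI + 3, against 0.677, 2.41, 1.06 and 2.00 CPM in 1d-SHAM + 3. It had 1.66 (adjusted p = 0.026, SE 0.42), without overlap, and was not significant without 1d-MI + 3 replicate 1 or 2 or 1d-SHAM + 3 replicate 1, 3 or 4 (adjusted p 0.053 to 0.088). Against the 1078 pair it had 1.64 (adjusted p = 0.18). *Mmp9*, the gelatinase neutrophils release, had 2.06 (adjusted p = 0.024, SE 0.53) and *Retnlg*, a resistin-like protein of granulocytes, 3.07 (adjusted p = 0.036, SE 0.87). *Mmp9* was not significant without 1d-MI + 3 replicate 2 or 1d-SHAM + 3 replicate 1, 3 or 4 (adjusted p 0.053 to 0.071), and *Retnlg* without 1d-MI + 3 replicate 1 or 4 or 1d-SHAM + 3 replicate 1 or 3 (adjusted p 0.062 to 0.11). In all 5 of 11 tested neutrophil markers were higher and 0 lower, with a median of 2.01 and sums of 23.0 to 29.9 CPM in 1d-MI + 3, against 5.01 to 9.39 CPM in 1d-SHAM + 3; Ly6g and Elane were too low to test.

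Inflammatory mediators and receptors joined them. Of 42 genes of inflammation and acute phase 14 were higher and 1 lower (median 1.20), and 7 of the higher ones passed against each sham pair. *Il1r1*, the receptor of interleukin-1, stood at 16.5, 15.2, 11.6 and 19.3 CPM in 1d-MI + 3, against 7.37, 8.80, 7.26 and 6.99 CPM in 1d-SHAM + 3. It was higher without overlap, at 1.04 (adjusted p = 0.0013, SE 0.16). *Osmr*, the receptor of oncostatin M, which is known to drive cardiomyocyte dedifferentiation, averaged 18.2 ± 4.03 CPM in 1d-MI + 3 and 8.45 ± 2.45 CPM in 1d-SHAM + 3, with 1.11 (adjusted p = 0.0026, SE 0.19). *Lbp*, which hands bacterial lipopolysaccharide to its receptor, averaged 4.62 ± 1.47 CPM in 1d-MI + 3 and 1.89 ± 0.275 CPM in 1d-SHAM + 3, with 1.29 (adjusted p = 0.0028, SE 0.22). *Hp*, haptoglobin, averaged 0.868 ± 0.235 CPM in 1d-MI + 3 and 0.0591 ± 0.0725 CPM in 1d-SHAM + 3, with 3.74 (adjusted p = 0.0035, SE 0.67). *Socs3*, the feedback inhibitor of STAT3 signalling, stood at 4.46, 5.74, 2.10 and 4.51 CPM in 1d-MI + 3, against 0.717, 0.930, 1.68 and 2.46 CPM in 1d-SHAM + 3. MI replicate 3 lay below sham replicate 4, and the log2 fold change was 1.56 (adjusted p = 0.0093, SE 0.33). *Il6*, interleukin-6, had 24, 54, 17 and 104 counts in 1d-MI + 3, against 10, 3, 0 and 0 counts in 1d-SHAM + 3, and 3.71 (adjusted p = 0.011, SE 0.77). Outside that list *Tlr7*, an RNA-sensing receptor of endosomes, had 1.67 (adjusted p = 0.0014, SE 0.26). All of these passed against each pair. *Hp* and *Lbp* are also made by the liver, of whose 7 tested markers 0 passed (median 2.52), with sums of 1.17 to 39.0 CPM in 1d-MI + 3, against 0.443 to 4.14 CPM in 1d-SHAM + 3; their part was not tested. The lower gene was *Steap4*, a metalloreductase known to restrain inflammation in fat, at 8.94, 5.03, 9.13 and 6.08 CPM in 1d-MI + 3, against 14.5, 13.9, 14.9 and 19.2 CPM in 1d-SHAM + 3, without overlap and with -1.10 (adjusted p = 0.0023, SE 0.18).

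Chemokines, complement and interferon genes differed in how firmly they moved. Of 25 tested chemokine ligands 6 were higher and 0 lower (median 1.76), none against each sham pair. Lists of organs that were not sampled could shift as well. All 5 tested lung markers were positive with a median of 2.54 and 0 passed, whereas the 5 tested thymus and lymphoid organ markers had a median of 0.06. The part of a shift of low-count genes in any list median was not tested. *Ccl3* had 3.65 (adjusted p = 0.0056, SE 0.71), *Ccl6* 2.89 (adjusted p = 0.0052, SE 0.51) and *Ccl7* 2.30 (adjusted p = 0.0059, SE 0.45), each in all 8 fits without 1 library, and *Ccl2*, the monocyte attractant, had 1.74 (adjusted p = 0.027, SE 0.44) with overlap, not significant without 1d-MI + 3 replicate 2 or 4 or 1d-SHAM + 3 replicate 3 or 4 (adjusted p 0.075 to 0.092). Of 23 complement genes 6 were higher and 1 lower. *C3ar1*, the receptor of the anaphylatoxin C3a, stood at 9.51, 12.2, 5.08 and 17.3 CPM in 1d-MI + 3, against 3.38, 2.28, 2.39 and 3.86 CPM in 1d-SHAM + 3. It was higher without overlap, at 1.90 (adjusted p = 0.0014, SE 0.28), and passed against each pair. *Cfb*, factor B of the alternative pathway, had 1.3 (adjusted p = 0.018, SE 0.32) and passed against each pair as well, but was not significant without 1d-MI + 3 replicate 2 (adjusted p = 0.060). Of 38 interferon-stimulated genes 37 had a positive value, with a median of 1.06, but only *Oas1a* passed, at 2.37 (adjusted p = 0.049, SE 0.73), and it did not without 1d-MI + 3 replicate 1, 2 or 4 or 1d-SHAM + 3 replicate 1, 3 or 4 (adjusted p 0.060 to 0.13). The summed level of that list ran between 208 and 850.3 CPM in 1d-MI + 3, against 163 to 214 CPM in 1d-SHAM + 3. *Saa3*, an acute-phase serum amyloid, had 16, 24, 6 and 39 counts in 1d-MI + 3, against 2, 4, 0 and 0 in 1d-SHAM + 3. *Hal*, which starts the breakdown of histidine, had 100, 121, 20 and 113 counts in 1d-MI + 3, against 11, 26, 0 and 0 in 1d-SHAM + 3, so that MI replicate 3 lay below sham replicate 2. Each passed narrowly (adjusted p = 0.043 and 0.043), *Saa3* against neither pair alone (adjusted p = 0.31 against the 1078 pair and 0.076 against the 1103 pair) and *Hal* against the 1103 pair only (adjusted p = 0.22 against the 1078 pair and 0.016 against the 1103 pair); *Saa3* was not significant without 1d-MI + 3 replicate 1, 2 or 4 or 1d-SHAM + 3 replicate 1, 3 or 4 (adjusted p 0.086 to 0.13) and *Hal* not without 1d-MI + 3 replicate 1, 2 or 4 or 1d-SHAM + 3 replicate 1, 3 or 4 (adjusted p 0.089 to 0.12).

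Many matrix genes rose. Of 58 genes of extracellular matrix and fibrosis 21 were higher and 2 lower, with a median log2 fold change of 0.60, and 6 of the higher ones (*Col1a1*, *Fn1*, *Spp1*, *Bgn*, *Lox* and Tgfbi) passed against each sham pair. *Fn1*, fibronectin, the early provisional matrix, stood at 271, 259.5, 226 and 544 CPM in 1d-MI + 3, against 127, 126, 105 and 109 CPM in 1d-SHAM + 3. MI replicate 4 was well above the other MI libraries, all of which lay above the shams, and the log2 fold change was 1.48 (adjusted p = 6.8e-04, SE 0.21). *Col1a1*, the main chain of collagen I (chromosome 11, 94936224 to 94953042), stood at 80.9, 70.3, 65.0 and 140.2 CPM in 1d-MI + 3, against 31.5, 38.2, 37.0 and 42.0 CPM in 1d-SHAM + 3. The log2 fold change was 1.26 (adjusted p = 0.0018, SE 0.20), without overlap. *Bgn*, the small proteoglycan biglycan, stood at 65.1, 47.1, 48.1 and 98.7 CPM in 1d-MI + 3, against 21.6, 22.5, 24.4 and 21.3 CPM in 1d-SHAM + 3. It had 1.53 (adjusted p = 2.8e-04, SE 0.20). *Lox*, which cross-links collagen and elastin, averaged 65.4 ± 30.7 CPM in 1d-MI + 3 and 19.6 ± 4.40 CPM in 1d-SHAM + 3, at 1.74 (adjusted p = 9.3e-04, SE 0.25), and *Cthrc1*, a secreted protein of activated fibroblasts, averaged 4.24 ± 1.98 CPM in 1d-MI + 3 and 1.29 ± 0.376 CPM in 1d-SHAM + 3, at 1.74 (adjusted p = 0.0020, SE 0.28). *Adamtsl2*, a microfibril-binding protein, averaged 9.88 ± 6.05 CPM in 1d-MI + 3 and 1.69 ± 0.405 CPM in 1d-SHAM + 3, at 2.56 (adjusted p = 0.0015, SE 0.37). *Cthrc1* and *Adamtsl2*, which are not in the list, also passed against each sham pair.

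Further collagens were higher, with a call that did not hold against the 1078 pair alone. *Col8a1*, a short-chain collagen of remodelling tissue, stood at 10.6, 14.2, 5.68 and 37.4 CPM in 1d-MI + 3, against 2.69, 1.67, 1.6 and 0.733 CPM in 1d-SHAM + 3. *Col11a1*, a minor fibrillar collagen, stood at 31.5, 30.5, 17.9 and 89.7 CPM in 1d-MI + 3, against 5.45, 7.78, 4.43 and 4.30 CPM in 1d-SHAM + 3. In both genes the MI libraries lay above all shams with replicate 4 highest, the log2 fold changes were 3.31 (adjusted p = 0.0032, SE 0.51) and 2.95 (adjusted p = 0.0024, SE 0.42), and neither passed against the 1078 pair. *Col8a1* had 2.94 against the 1078 pair (adjusted p = 0.062) and 3.83 against the 1103 pair (adjusted p = 0.0083), and *Col11a1* 2.66 against the 1078 pair (adjusted p = 0.059) and 3.29 against the 1103 pair (adjusted p = 0.0072). *Col12a1* had 2.30 (adjusted p = 0.0028, SE 0.36) and *Timp1*, an inhibitor of matrix proteases, 2.15 (adjusted p = 0.0046, SE 0.37), both without overlap. *Col12a1* had 1.99 against the 1078 pair (adjusted p = 0.060) and 2.69 against the 1103 pair (adjusted p = 0.0068), and *Timp1* 2.28 against the 1078 pair (adjusted p = 0.063) and 2.01 against the 1103 pair (adjusted p = 0.030). *Tnc*, tenascin-C, had 1.18 (adjusted p = 0.015, SE 0.27) and lost significance without 1d-SHAM + 3 replicate 3 (adjusted p = 0.058). Against the 1078 pair it had 0.89 (adjusted p = 0.15).

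Not every fibroblast product rose. *Postn*, periostin, stood at 951, 585, 1159 and 1347 CPM in 1d-MI + 3, against 1180.0, 1039, 842 and 757 CPM in 1d-SHAM + 3, with overlapping groups and a log2 fold change of 0.08 (adjusted p = 0.81). *Acta2*, smooth muscle actin of myofibroblasts, had -0.39 (adjusted p = 0.31). *Dcn*, decorin, stood at 446, 341, 565 and 426 CPM in 1d-MI + 3, against 819.6, 655, 619.9 and 755 CPM in 1d-SHAM + 3. The groups did not overlap, and the value of -0.68 (adjusted p = 0.014, SE 0.16) was not significant without 1d-MI + 3 replicate 2 (adjusted p = 0.053). *Mfap5*, a glycoprotein of elastic microfibrils, stood at 8.55, 5.81, 7.29 and 8.75 CPM in 1d-MI + 3, against 20.1, 12.7, 16.9 and 19.6 CPM in 1d-SHAM + 3. It was lower in every MI library, at -1.19 (adjusted p = 0.0016, SE 0.19), and passed against each pair. Of 10 fibroblast markers 1 was higher (*Col1a1*) and 2 lower, and their sum was 576 to 936 CPM in 1d-MI + 3, against 936 to 1158 CPM in 1d-SHAM + 3. *Ccn3*, a matricellular protein of the CCN family (chromosome 15, 54745702 to 54754039), stood at 4.5, 4.87, 7.64 and 4.65 CPM in 1d-MI + 3, against 29.9, 27.5, 23.1 and 22.6 CPM in 1d-SHAM + 3. The groups were far apart, with MI replicate 3 the nearest to the shams, and the log2 fold change was -2.25 (adjusted p = 7.9e-04, SE 0.30) with -2.41 against the 1078 pair (adjusted p = 0.012) and -2.07 against the 1103 pair (adjusted p = 0.0045).

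Keratins of the heart's outer lining rose with them. *Krt8* stood at 2.89, 4.07, 4.49 and 10.3 CPM in 1d-MI + 3, against 1.12, 0.719, 0.443 and 0.533 CPM in 1d-SHAM + 3. Its partner in filaments, *Krt18*, stood at 7.02, 6.68, 8.20 and 22.8 CPM in 1d-MI + 3, against 2.95, 2.62, 3.54 and 0.866 CPM in 1d-SHAM + 3. Neither overlapped, and MI replicate 4 was highest for both. The log2 fold changes were 2.93 (adjusted p = 6.8e-04, SE 0.41) and 2.14 (adjusted p = 0.014, SE 0.46), and *Krt8* passed against each pair whereas *Krt18* did not pass against the 1078 pair (adjusted p = 0.12). With Krt19 they were the 3 of 11 tested markers of mesothelium and epicardium that were higher. The list summed to 57.0 to 93.2 CPM in 1d-MI + 3, against 37.7 to 54.1 CPM in 1d-SHAM + 3, and the part of that lining in the keratin values was not tested.

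**Figure D4:**
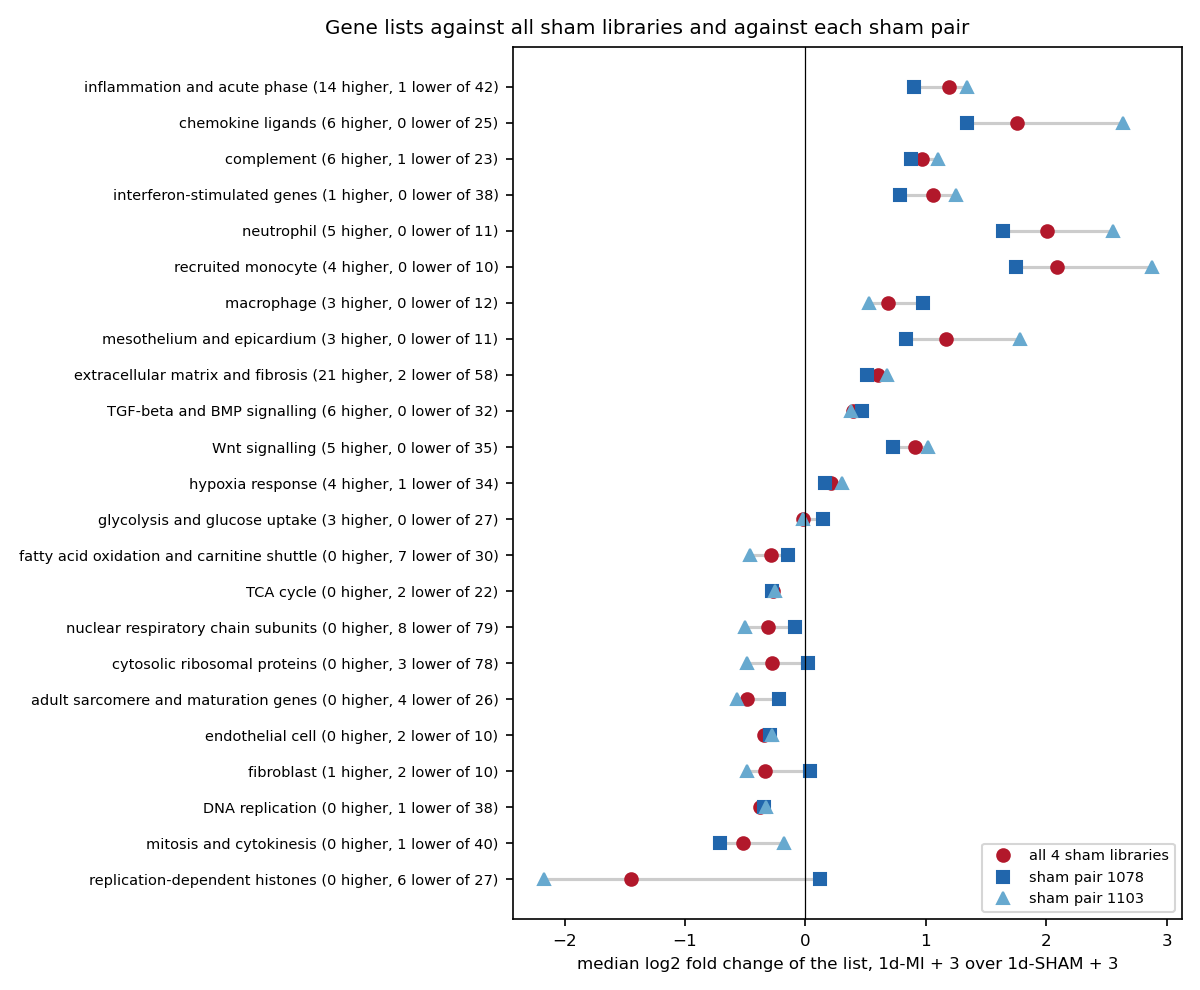
Median log2 fold change (x axis, 1d-MI + 3 over 1d-SHAM + 3) of 23 gene lists (y axis, with the number of members higher and lower of those tested); red circles use all 4 sham libraries, dark squares the 1078 pair and light triangles the 1103 pair. Immune lists lie to the right of 0 and mitosis to the left with either pair, while the histones move between 0.12 and -2.17.

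Growth-factor and signalling genes changed gene by gene. Of 24 cardiomyocyte mitogens and receptors 1 was higher and 2 lower, where 4.10% and 4.36% of all genes tested were. The list had 11 positive and 13 negative values and a median of -0.04. *Nrg1*, neuregulin-1, a mitogen of newborn cardiomyocytes, stood at 5.59, 3.19, 3.04 and 7.83 CPM in 1d-MI + 3, against 1.71, 1.18, 1.29 and 2.03 CPM in 1d-SHAM + 3. It was higher without overlap, at 1.67 (adjusted p = 0.0051, SE 0.32), and passed against each sham pair. *Igf2*, the fetal growth factor, stood at 117, 123, 172 and 124 CPM in 1d-MI + 3, against 109.5, 148, 219 and 194 CPM in 1d-SHAM + 3, with overlap (adjusted p = 0.33). *Peg10*, an imprinted placental gene, had 1.23 (adjusted p = 0.0095, SE 0.26), and *Myof*, the membrane-repair protein myoferlin, 1.44 (adjusted p = 7.9e-04, SE 0.21). Against the 1078 pair *Peg10* had 0.95 (adjusted p = 0.11), whereas *Myof* passed against each pair. *Inhbb*, the beta B subunit of activin, averaged 2.54 ± 1.23 CPM in 1d-MI + 3 and 0.590 ± 0.204 CPM in 1d-SHAM + 3, at 2.11 (adjusted p = 0.0030, SE 0.37). *Ltbp2*, a latent TGF-beta binding protein, averaged 5.20 ± 2.09 CPM in 1d-MI + 3 and 1.37 ± 0.795 CPM in 1d-SHAM + 3, at 1.88 (adjusted p = 0.0068, SE 0.36). *Tgfb2*, a TGF-beta ligand, had 0.72 (adjusted p = 0.039, SE 0.21), not significant without 1d-MI + 3 replicate 1, 2 or 4 or 1d-SHAM + 3 replicate 3 or 4 (adjusted p 0.063 to 0.13). In all, 6 of 32 genes of TGF-beta and BMP signalling were higher and 0 lower. *Nog*, the BMP antagonist noggin, had 62, 55, 26 and 24 counts in 1d-MI + 3, against 6, 0, 0 and 0 counts in 1d-SHAM + 3. Its adjusted p of 0.029 was lost without 1d-MI + 3 replicate 1, 2 or 4 or 1d-SHAM + 3 replicate 3 or 4 (adjusted p 0.052 to 0.091).

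In Wnt signalling 5 of 35 genes were higher and 0 lower (median 0.91). *Nkd2*, a feedback inhibitor of the pathway, stood at 12.6, 12.4, 14.6 and 18.7 CPM in 1d-MI + 3, against 6.43, 6.22, 7.84 and 3.66 CPM in 1d-SHAM + 3. It was higher without overlap, at 1.27 (adjusted p = 0.0018, SE 0.20), and passed against each pair. *Sfrp2*, a secreted Wnt modulator, had 1.11 (adjusted p = 0.015, SE 0.26), not significant without 1d-MI + 3 replicate 1 (adjusted p = 0.056). *Lef1*, a nuclear partner of beta-catenin, stood at 2.35, 3.04, 0.655 and 1.63 CPM in 1d-MI + 3, against 0.239, 0.782, 0.310 and 0.533 CPM in 1d-SHAM + 3. MI replicate 3 lay below sham replicate 2, and 2.04 (adjusted p = 0.029, SE 0.55) was not significant without 1d-MI + 3 replicate 1, 2 or 4 or 1d-SHAM + 3 replicate 1, 3 or 4 (adjusted p 0.055 to 0.11). *Ofd1*, a protein of the primary cilium's base, did not pass (log2 fold change -0.24, adjusted p = 0.30).

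Few cell cycle genes passed at day 1. Of 40 genes of mitosis and cytokinesis 39 had a negative value, the median was -0.52, and 0 were higher and 1 lower. Over all genes tested 4.10% were higher and 4.36% lower. Counts this low, here and for DNA replication below, are therefore not particular to these genes. *Mki67*, the proliferation antigen Ki-67 (chromosome 7, 135689784 to 135716361), stood at 139, 183, 273 and 250.2 CPM in 1d-MI + 3, against 427, 338, 237 and 150.2 CPM in 1d-SHAM + 3. The groups overlapped, and the sham libraries themselves split, the 1078 pair above every MI library and 1103 replicate 4 below all but MI replicate 1, so that the log2 fold change was -0.86 against the 1078 pair and 0.14 against the 1103 pair (-0.45 with all, adjusted p = 0.28). *Top2a*, the topoisomerase of dividing cells, stood at 64.6, 82.9, 152 and 132 CPM in 1d-MI + 3, against 217, 215, 197 and 123 CPM in 1d-SHAM + 3. It had -0.80 (adjusted p = 0.056, SE 0.25), with overlap. *Nusap1*, a spindle protein, was the mitosis gene that passed, at -0.64 (adjusted p = 0.048, SE 0.20), and was not significant without 1d-MI + 3 replicate 1, 2 or 4 or 1d-SHAM + 3 replicate 1, 2 or 3 (adjusted p 0.057 to 0.14). Of 38 DNA replication genes only *Mcm6*, a subunit of the replicative helicase, passed, at -0.72 (adjusted p = 0.028, SE 0.19), and was not significant without 1d-MI + 3 replicate 1 or 2 or 1d-SHAM + 3 replicate 3 (adjusted p 0.085 to 0.097).

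Some regulators of the G1 phase did pass. *Ccnd1*, cyclin D1, stood at 39.7, 39.7, 57.2 and 42.1 CPM in 1d-MI + 3, against 63.1, 61.1, 110.3 and 89.5 CPM in 1d-SHAM + 3. No MI library reached the sham range, and the change was -0.86 (adjusted p = 0.0063, SE 0.17), with -0.48 against the 1078 pair (adjusted p = 0.14) and -1.16 against the 1103 pair (adjusted p = 1.0e-04). *Ccnd2*, the other D cyclin of the heart, had -0.18 (adjusted p = 0.52). *Cdkn1c*, the inhibitor p57, stood at 25.1, 24.3, 33.6 and 27.6 CPM in 1d-MI + 3, against 39.4, 39.9, 46.9 and 47.9 CPM in 1d-SHAM + 3. It was lower without overlap, at -0.65 (adjusted p = 0.0080, SE 0.14), with -0.53 against the 1078 pair (adjusted p = 0.11) and -0.77 against the 1103 pair (adjusted p = 0.0031). *Myc* was higher at 0.62 (adjusted p = 0.039, SE 0.18), but not without 1d-MI + 3 replicate 1, 2 or 4 or 1d-SHAM + 3 replicate 1, 2 or 4 (adjusted p 0.067 to 0.11).

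Metabolic genes separated into a few firm changes and broad shifts that few members passed. *Bdh1*, the mitochondrial enzyme that uses ketone bodies (chromosome 16, 31422280 to 31458901), stood at 3.85, 4.07, 4.86 and 5.23 CPM in 1d-MI + 3, against 0.796, 1.04, 0.443 and 0.333 CPM in 1d-SHAM + 3. The groups were far apart, and the log2 fold change was 2.76 (adjusted p = 6.3e-05, SE 0.31). *Idh1*, the cytosolic isocitrate dehydrogenase, stood at 23.5, 27.0, 35.5 and 32.5 CPM in 1d-MI + 3, against 63.9, 55.4, 36.2 and 47.8 CPM in 1d-SHAM + 3. It was lower at -0.78 (adjusted p = 0.0071, SE 0.16), with MI replicate 3 just below sham replicate 3. *Fbp2*, fructose bisphosphatase of muscle, stood at 4.02, 4.62, 5.80 and 4.08 CPM in 1d-MI + 3, against 12.9, 9.28, 9.21 and 15.5 CPM in 1d-SHAM + 3. The decrease had no overlap and was -1.34 (adjusted p = 0.0024, SE 0.22). *C1qtnf9*, a hormone related to adiponectin, stood at 7.21, 4.53, 9.92 and 10.6 CPM in 1d-MI + 3, against 28.2, 20.3, 24.1 and 19.9 CPM in 1d-SHAM + 3. All MI libraries lay below all shams, at -1.52 (adjusted p = 0.0012, SE 0.22). All of these passed against each sham pair.

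Some genes of glucose use were higher. *Slc16a3*, the lactate exporter MCT4, stood at 5.66, 6.28, 6.05 and 7.92 CPM in 1d-MI + 3, against 2.37, 2.69, 1.86 and 0.533 CPM in 1d-SHAM + 3. It was higher without overlap, at 1.78 (adjusted p = 0.0051, SE 0.34), and passed against each pair. *Slc2a1*, the glucose transporter GLUT1 of the fetal heart, had 0.94 (adjusted p = 0.019, SE 0.23), and was not significant without 1d-MI + 3 replicate 2 or 4 or 1d-SHAM + 3 replicate 4 (adjusted p 0.059 to 0.066). *Pfkfb3*, which activates glycolysis, had 0.98 (adjusted p = 0.011, SE 0.22). Against the 1078 pair *Slc2a1* had 0.76 (adjusted p = 0.12) and *Pfkfb3* 0.73 (adjusted p = 0.11). *Eno2*, an enolase, had 2.33 (adjusted p = 0.0012, SE 0.35). *Bnip3*, a hypoxia-inducible protein of mitophagy, stood at 289, 334, 389 and 398 CPM in 1d-MI + 3, against 225, 193, 115 and 147 CPM in 1d-SHAM + 3. It was higher without overlap, at 1.05 (adjusted p = 0.0056, SE 0.21), with 0.74 against the 1078 pair (adjusted p = 0.076) and 1.44 against the 1103 pair (adjusted p = 2.6e-04). Over the whole list of glycolysis and glucose uptake 3 of 27 genes were higher and 0 lower, with a median of -0.02.

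Lists of fatty acid oxidation and the respiratory chain had slightly negative medians, and more so against the 1103 pair. Of 30 genes of fatty acid oxidation and the carnitine shuttle 0 were higher and 7 lower (median -0.29, -0.15 against the 1078 and -0.46 against the 1103 pair), none against each pair. *Hadha*, a subunit of the trifunctional protein, stood at 231, 224, 351 and 243 CPM in 1d-MI + 3, against 420.1, 376, 395 and 497 CPM in 1d-SHAM + 3. The groups did not overlap, and the value of -0.69 (adjusted p = 0.026, SE 0.18) was not significant without 1d-MI + 3 replicate 1, 2 or 4 or 1d-SHAM + 3 replicate 4 (adjusted p 0.072 to 0.089). *Acaa2*, the last enzyme of the cycle, had -0.75 (adjusted p = 0.022, SE 0.19), and *Crat*, carnitine acetyltransferase, -0.68 (adjusted p = 0.024, SE 0.18), each with overlap. *Acaa2* was not significant without 1d-MI + 3 replicate 1, 2 or 4 or 1d-SHAM + 3 replicate 4 (adjusted p 0.063 to 0.080), and *Crat* not without 1d-MI + 3 replicate 1, 2 or 4 or 1d-SHAM + 3 replicate 3 or 4 (adjusted p 0.068 to 0.080). *Slc25a20*, the carnitine carrier of the inner membrane, had -0.39 (adjusted p = 0.11). *Pdk4*, the brake on pyruvate oxidation, stood at 111, 192, 282 and 223 CPM in 1d-MI + 3, against 197, 224, 100.3 and 216 CPM in 1d-SHAM + 3, with overlap (adjusted p = 0.83). *Ppargc1a*, the coactivator of mitochondrial biogenesis, had -0.42 (adjusted p = 0.33). Of 79 nuclear genes of the respiratory chain 75 had a negative value and 8 were lower, with a median of -0.31 that was -0.09 against the 1078 pair. *Ndufv3*, a subunit of complex I, stood at 76.6, 72.0, 98.9 and 78.3 CPM in 1d-MI + 3, against 136, 104, 141 and 169.5 CPM in 1d-SHAM + 3. It was lower without overlap, at -0.76 (adjusted p = 0.0037, SE 0.14), with -0.57 against the 1078 pair (adjusted p = 0.073). *Atp5o*, of the ATP synthase, had -0.91 (adjusted p = 0.012, SE 0.20), and *Cox6a2*, of cytochrome oxidase, -0.81 (adjusted p = 0.033, SE 0.22), but -0.31 and -0.20 against the 1078 pair. *Cox6a2* was not significant without 1d-MI + 3 replicate 1, 2 or 4 or 1d-SHAM + 3 replicate 3 or 4 (adjusted p 0.060 to 0.11).

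The sterol genes *Insig1* and *Hmgcs1* did the reverse and passed against the 1078 pair only. *Insig1*, the sterol sensor of the endoplasmic reticulum, stood at 9.30, 12.2, 17.6 and 17.5 CPM in 1d-MI + 3, against 32.5, 32.9, 22.3 and 17.9 CPM in 1d-SHAM + 3. No MI library reached the sham range, and the change was -0.90 (adjusted p = 0.012, SE 0.20), with -1.21 against the 1078 pair (adjusted p = 0.0023) and -0.50 against the 1103 pair (adjusted p = 0.082). *Hmgcs1*, which makes the HMG-CoA of cholesterol, had -0.65 (adjusted p = 0.037, SE 0.18), with -1.03 against the 1078 pair (adjusted p = 0.0013) and -0.14 against the 1103 pair (adjusted p = 0.50), and lost its call without 1d-MI + 3 replicate 1, 2 or 4 or 1d-SHAM + 3 replicate 1 (adjusted p 0.083 to 0.12). *Fasn*, fatty acid synthase, had -0.54 (adjusted p = 0.027, SE 0.14), unlike them passed against the 1103 and not the 1078 pair, and was not significant without 1d-MI + 3 replicate 1, 2 or 4 or 1d-SHAM + 3 replicate 3 or 4 (adjusted p 0.054 to 0.085). Antioxidant genes were mixed, 3 of 30 higher and 4 lower: *Gpx3*, a secreted glutathione peroxidase, had 0.93 (adjusted p = 0.0085, SE 0.20), *Hmox1*, heme oxygenase, 1.24 (adjusted p = 0.035, SE 0.34), and *Gsta4*, a glutathione transferase, -0.83 (adjusted p = 0.0050, SE 0.16). *Hmox1* was not significant without 1d-MI + 3 replicate 1, 2 or 4 or 1d-SHAM + 3 replicate 1, 2 or 3 (adjusted p 0.053 to 0.10).

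Of 29 genes of VEGF, angiopoietin and vessel growth 0 were higher and 4 lower, none against each pair. *Sema3c*, *Cd34*, *Tcf15*, *Bcl6b*, *Jam2* and *Lepr*, given below, are single genes chosen after their values were seen. *Sema3c*, a guidance cue for vessels and neural crest, stood at 20.7, 17.7, 29.2 and 24.4 CPM in 1d-MI + 3, against 57.1, 49.7, 52.8 and 49.3 CPM in 1d-SHAM + 3. It fell clear of the shams, at -1.18 (adjusted p = 2.8e-04, SE 0.15), and passed against each pair. *Tek*, the angiopoietin receptor Tie2, stood at 25, 22.8, 37.1 and 32.2 CPM in 1d-MI + 3, against 44.1, 47.3, 59.9 and 62.6 CPM in 1d-SHAM + 3. The decrease had no overlap and was -0.87 (adjusted p = 0.0028, SE 0.15), with -0.65 against the 1078 pair (adjusted p = 0.054) and -1.06 against the 1103 pair (adjusted p = 2.7e-04). *Kdr*, the main VEGF receptor, stood at 35.5, 36.7, 54.8 and 43.2 CPM in 1d-MI + 3, against 60.3, 68.9, 71.0 and 56.2 CPM in 1d-SHAM + 3. Its -0.59 (adjusted p = 0.041, SE 0.17) was not significant without 1d-MI + 3 replicate 1, 2 or 4 or 1d-SHAM + 3 replicate 1, 2, 3 or 4 (adjusted p 0.052 to 0.13), while *Pecam1*, the general endothelial marker, did not pass (-0.34, adjusted p = 0.13). *Cd34* had -0.80 (adjusted p = 0.0056, SE 0.16), *Tcf15*, a transcription factor of capillary endothelium, -1.12 (adjusted p = 0.0046, SE 0.21), *Bcl6b*, an endothelial repressor, -0.96 (adjusted p = 0.0030, SE 0.17), and *Jam2*, a junction protein of vessels, -0.92 (adjusted p = 0.0025, SE 0.16), each without overlap and against each pair. *Lepr*, the leptin receptor, had -0.93 (adjusted p = 0.0030, SE 0.16). *Aplnr*, the apelin receptor, had -0.86 (adjusted p = 0.019, SE 0.21) with overlap, not significant without 1d-MI + 3 replicate 1, 2 or 4 or 1d-SHAM + 3 replicate 3 (adjusted p 0.055 to 0.073). *Kcnj8*, the pericyte potassium channel, had -1.06 (adjusted p = 0.0041, SE 0.20), with -0.68 against the 1078 pair (adjusted p = 0.071) and -1.36 against the 1103 pair (adjusted p = 7.5e-05). Of 10 endothelial markers 0 were higher and 2 lower, and their sum ran between 643 and 1059 CPM in 1d-MI + 3, against 947 to 1062 CPM in 1d-SHAM + 3.

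Further single genes, most of them lower, are given next. *Tspan13*, a tetraspanin (chromosome 12, 36014557 to 36042500), stood at 7.35, 9.18, 15 and 6.70 CPM in 1d-MI + 3, against 26.9, 22.1, 33.6 and 27.8 CPM in 1d-SHAM + 3. It was lower without overlap, at -1.53 (adjusted p = 2.8e-04, SE 0.20). *Tppp*, a microtubule-stabilising protein, stood at 10.4, 8.13, 7.76 and 6.36 CPM in 1d-MI + 3, against 24.1, 18.6, 21.2 and 21.4 CPM in 1d-SHAM + 3. The groups did not overlap, with a log2 change of -1.38 (adjusted p = 2.8e-04, SE 0.18). *Rgs6*, which ends vagal signalling in the heart, stood at 5.61, 5.05, 4.33 and 2.51 CPM in 1d-MI + 3, against 10.4, 10.8, 12.1 and 9.72 CPM in 1d-SHAM + 3. It had -1.3 (adjusted p = 0.0031, SE 0.23). *Fmo1*, a flavin monooxygenase, had -1.28 (adjusted p = 6.3e-04, SE 0.18), and like the others passed against each pair. *Aqp4*, a water channel, had -1.37 (adjusted p = 0.038, SE 0.37), and *Kcnj5*, the acetylcholine-gated potassium channel, -0.81 (adjusted p = 0.018, SE 0.20), with -1.07 and -0.49 against the 1078 pair, where neither passed; *Aqp4* was not significant without 1d-MI + 3 replicate 1, 2 or 4 or 1d-SHAM + 3 replicate 1, 3 or 4 (adjusted p 0.057 to 0.12), and *Kcnj5* without 1d-MI + 3 replicate 1 or 4 or 1d-SHAM + 3 replicate 4 (adjusted p 0.060 to 0.069). Of 23 genes of the glucocorticoid response 2 were higher and 3 lower, with 13 positive and 10 negative values and a median of 0.13. The lower ones were *Tsc22d3*, *Sult1a1* and *Nr3c1*. *Tsc22d3*, the mediator GILZ, averaged 34.3 ± 3.96 CPM in 1d-MI + 3 and 59.4 ± 10.4 CPM in 1d-SHAM + 3, at -0.79 (adjusted p = 0.0037, SE 0.15), and *Sult1a1*, a sulfotransferase, averaged 6.96 ± 2.28 CPM in 1d-MI + 3 and 15.6 ± 4.20 CPM in 1d-SHAM + 3, at -1.16 (adjusted p = 0.0031, SE 0.20), both against each pair. The receptor gene *Nr3c1* had -0.55 (adjusted p = 0.012, SE 0.12), and was not significant without 1d-MI + 3 replicate 1 (adjusted p = 0.055). Against the 1078 pair it had -0.53 (adjusted p = 0.099). In the angiotensin system *Ace*, the converting enzyme, was higher at 0.95 (adjusted p = 0.0026, SE 0.16) against each pair, and *Agtr1a*, the receptor, lower at -0.78 (adjusted p = 0.026, SE 0.21), not significant without 1d-MI + 3 replicate 1 or 4 or 1d-SHAM + 3 replicate 3 or 4 (adjusted p 0.053 to 0.079). *Lrp1*, an endocytic receptor of many tissues, was higher at 1.20 (adjusted p = 0.0025, SE 0.20).

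Some genes passed with all 4 sham libraries and against the 1103 pair but not against the 1078 pair, with smaller differences from the 1078 pair. Of 27 tested replication-dependent histone genes, whose messages carry no poly(A) tail, 6 were lower and 0 higher, and all 27 had a negative value with all sham libraries (median -1.45), but the median was 0.12 against the 1078 pair and -2.17 against the 1103 pair. *Hist2h2bb*, a further histone gene outside that list, stood at 186, 124, 203 and 254 CPM in 1d-MI + 3, against 334, 265, 823 and 632 CPM in 1d-SHAM + 3. *Hist1h1b*, a linker histone, stood at 4.69, 8.76, 11.5 and 11.3 CPM in 1d-MI + 3, against 11.7, 12.8, 50.2 and 39.3 CPM in 1d-SHAM + 3. The 1103 pair was well above the 1078 pair in both, and the changes of -1.42 (adjusted p = 0.020, SE 0.34) and -1.65 (adjusted p = 0.045, SE 0.47) did not pass against the 1078 pair. *Hist1h3e* had -1.45 (adjusted p = 0.0092, SE 0.30) and *Hist1h4c* -1.64 (adjusted p = 0.027, SE 0.42), with -0.90 and -0.41 against the 1078 pair. The mitochondrial message *mt-Nd6* stood at 4044, 3346, 3831 and 2374 CPM in 1d-MI + 3, against 3389, 4747, 9776 and 11370.0 CPM in 1d-SHAM + 3. Its -1.11 (adjusted p = 0.032, SE 0.30) was -0.27 against the 1078 pair. *mt-Co1* had -0.62 (adjusted p = 0.036, SE 0.18), and -0.46 against the 1078 pair. *Rn7sk* had -1.23 (adjusted p = 0.027, SE 0.32). *Hist1h1b*, *Hist1h4c*, *mt-Nd6*, *mt-Co1* and *Rn7sk* were each not significant without 1d-MI + 3 replicate 1, 2 or 4 or 1d-SHAM + 3 replicate 3 or 4 (adjusted p 0.053 to 0.14), and *Hist2h2bb* without 1d-MI + 3 replicate 1 or 2 or 1d-SHAM + 3 replicate 3 or 4 (adjusted p 0.068 to 0.075). Of 78 cytosolic ribosomal protein genes 3 were lower, a count near the 4.36% lower of all genes tested. Their median was -0.28, and 0.02 against the 1078 pair. The satellite-like genes went the other way: *Gm10801* stood at 1318, 1017, 122 and 209 CPM in 1d-MI + 3, against 263, 350.2, 0.576 and 0.899 CPM in 1d-SHAM + 3. *Gm10722* and *Gm11168* shared this pattern. None of the 12 passed with all 4 sham libraries (adjusted p = 0.34, 0.45 and 0.43 for these), while the median of the list was 0.35 against the 1078 and 9.29 against the 1103 pair.

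The effect of infarction was compared with that after operation at day 7, to ask how the response of the newborn heart differs from that of the older one. The difference of the effects, day 1 minus day 7, passed for 2662 genes (13.1%), 829 with a more positive effect at day 1 (4.07%) and 1833 with a more negative one (9.01%). At day 7 itself 4024 genes were higher (19.8%) and 2886 lower (14.2%) with MI. Of the genes robust to the sham pair at day 1, 128 of 142 higher and 54 of 84 lower ones also passed in the same direction at day 7, and for 75 of the 226 the difference itself passed. Receptor-gene reads took 0.995 to 5.44 CPM in the 8 day-7 libraries, well under the 1d-MI + 3 libraries and the 1078 pair, and their part in the differences between ages was not tested.

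Cell cycle genes differed in the effect of MI between the ages. At day 7 the mitosis list had a median log2 fold change of 1.09, with 33 of 40 genes higher, against -0.52 at day 1 (-0.71 against the 1078 and -0.18 against the 1103 pair, with 1 gene passing), and the difference passed for 35. *Mki67* averaged 211 ± 61.6 CPM in 1d-MI + 3 and 288 ± 120.3 CPM in 1d-SHAM + 3, whereas at day 7 it averaged 423 ± 54.4 CPM in 7d-MI + 3 and 107 ± 25.2 CPM in 7d-SHAM + 3, a log2 fold change of 1.98, and the difference between the ages was -2.43 (SE 0.38, adjusted p = 7.5e-04). *Top2a* differed by -2.09 (adjusted p = 0.0013). For DNA replication the day-7 median was 0.75 and 21 of 38 differences passed. *Mcm6* differed by -1.67 (adjusted p = 7.9e-04).

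Matrix and metabolic lists also differed in the size of the effect. The day-7 median of the matrix list was 1.69, with 46 of 58 genes higher, and 31 differences passed. *Col1a1* differed by -1.97 (adjusted p = 3.3e-04), *Fn1* by -1.86 (adjusted p = 6.4e-04) and *Postn*, which did not pass at day 1, by -1.17 (adjusted p = 0.0098). For fatty acid oxidation the day-7 median was -1.17, with 29 of 30 genes lower, and 16 differences passed. For the respiratory chain it was -1.05, with 76 of 79 lower, and 51 passed. *Pdk4* and *Ppargc1a*, which did not pass at day 1, had log2 fold changes of -2.76 and -2.20 at day 7, and differed between the ages by 2.89 (adjusted p = 0.0025) and 1.78 (adjusted p = 0.0084). *Myh7* had 0.31 at day 7 (adjusted p = 0.35) and a difference of -1.69 (adjusted p = 0.0031). For *Nppa* the difference of 0.50 did not pass (adjusted p = 0.72), nor did that of *Ccn3* (-0.37, adjusted p = 0.62) or *Bdh1* (-0.26, adjusted p = 0.76). For *Spp1* it was -2.91 (adjusted p = 0.27). A p over the threshold does not show that the effects were alike.

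**Figure D5:**
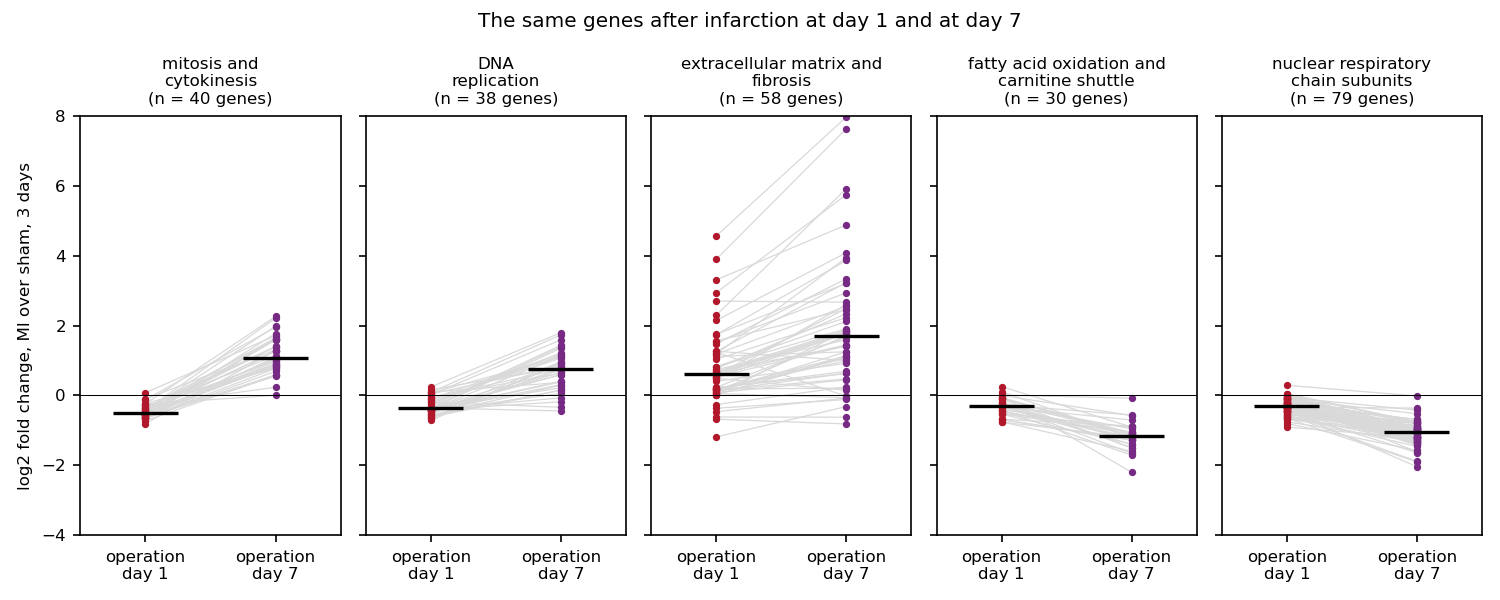
Log2 fold change of MI over sham 3 days after operation (y axis) for the genes of 5 lists, after operation at day 1 and at day 7 (x axis); each point is a gene, grey lines join the same gene, and black bars are medians, with 1 gene above the axis. The mitosis medians are at -0.52 and 1.09, whereas fatty acid oxidation and the respiratory chain are below 0 at both ages and lower at day 7.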

How the data were processed

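Ventricular RNA of 16 libraries collected 3 days after operation was fitted, of 28 in the series; the libraries of 21 days were not used here. Stranded total RNA libraries (500 ng, 2 x 75 cycles, NextSeq550) were sequenced. The submitters' processing notes name TopHat2, Bowtie2 and Cufflinks in versions 2.0.11, 2.2.2 and 2.2.1, and GRCm38, without their roles; the counting tool, its strand option and the annotation release were not given in the sources used here. The deposited counts are whole reads per gene. The deposited CPM, RPKM and log2 columns were not tested. CPM printed here for genes and lists is the count over the TMM-scaled library total of the genes tested, mitochondrial genes included. Fold changes use the same scaling. Receptor-gene CPM is the count over the library total without that scaling.

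Genes passing filterByExpr (minimum count 10, total 15) were fitted with edgeR 4.0.16 (quasi-likelihood, robust; limma 3.58.1, R 4.3.3) on the group means of all 16 libraries, which share 1 estimate of the spread, and p-values were Benjamini-Hochberg adjusted over all genes tested, with a threshold of 0.05. DESeq2 1.42.0, limma-voom, other scalings and filters, each sham pair alone, background corrections and leaving out each library were alternatives. Replicates were compared by chi-square of their counts and none were duplicates (35.36 to 615.3 per degree of freedom). Scripts were tested on simulated counts. Lists were described by counts and medians, with no set test. Exact permutation tests were used for library measures. The p-values of edgeR rest on the spread between libraries within groups, estimated over all 16 libraries. They do not separate the group from the title number.

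The gene groups and lists were chosen with earlier results of these data known. Named genes followed a rule: the 12 higher and 12 lower genes with the largest change that passed without overlap at a mean of at least 5 CPM, protein-coding and with an established symbol, up to 3 genes of smallest p per biological list, the first markers of each cell type and any that passed, a set of genes that the study's text names, and the 5 genes with the smallest p. Of the genes so named, those that the text turns on are given. Some are not reported here. Others, *Gm13054*, *Ankrd1*, *Timp1*, *Mfap5*, *Tnni1*, *Osmr*, *Lbp*, *Hp*, *Socs3*, *Il6*, *Myl2*, *Sema3c*, *Tcf15*, *Cd34*, *Synm*, *Lrp1*, *Eno2*, *Tlr7*, *Bcl6b*, *Jam2*, *Lepr*, *Fmo1*, *Col12a1*, *Fhl1*, *Ccl2*, *Cfb*, *Tgfb2* and *Rn7sk*, were chosen after their values were seen. Coordinates are those deposited with the counts and the windows of 250 bases before the start are from RefSeq, where 3 of 3 genes matched.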

Additional observations from a re-analysis of the deposited data

Results flagged for a closer look

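In 17 of 312 groups of 4 libraries, across the 150 genes named here and 6 library measures, 1 library lay far from the other 3 by Dixon's gap test at its 95% limit, and chance alone gives about 1 group in 20. In 1d-MI + 3 the library set apart had 512.2 CPM of *Xirp2*, 2.699 CPM of *Sprr1a*, 5.975 CPM of *Myl7*, 77.99 CPM of *Lyz2*, 14.12 CPM of *Adgre1*, 544.3 CPM of *Fn1*, 214.0 CPM of *Acta2*, 7.642 CPM of *Ccn3*, 22.78 CPM of *Krt18*, 57.16 CPM of *Ccnd1*, 172.0 CPM of *Igf2*, 310.7 CPM of *Acaa2*, 351.4 CPM of *Hadha* and 252.9 CPM of *Cd34*. In 1d-SHAM + 3 it had 4.162 CPM of *Adgre1*, 0.1194 CPM of *Nog* and 0.5708 CPM of *Myh3*. MI replicate 4 was the library set apart for *Myl7*, *Lyz2*, *Adgre1*, *Fn1*, *Acta2* and *Krt18*, and MI replicate 3 for *Sprr1a*, *Ccn3*, *Ccnd1*, *Igf2*, *Acaa2*, *Hadha* and *Cd34*.

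Over all genes tested the effect of MI differed between the ages for 13.1%, more positive at day 1 for 4.07% and more negative for 9.01%. Many of the 150 genes named here were chosen by their day-1 values, so their share cannot be set against these. The effect of MI on 60 of the 150 genes named here differed between operation at day 1 and at day 7 in edgeR's test of the difference, which is given on the log2 scale as day 1 minus day 7. It was more positive at day 1 for 11 genes: *Myl2* (0.71), *Cdkn1c* (0.94), *Fbp2* (1.02), *Acaa2* (0.85), *Pdk4* (2.89), *Ppargc1a* (1.78), *Tcf15* (1.25), *Sult1a1* (1.40), *mt-Co1* (0.80), *Gsta4* (0.70) and *Myh3* (7.21). It was more negative for 49. Among inflammation genes these were *Clu* (-1.03), *S100a8* (-1.75), *Il1r1* (-1.23), *Osmr* (-1.71), *Il6* (-6.38), *C3ar1* (-2.33), *Ccl2* (-2.94), *Ccl7* (-2.27), *Ccr2* (-3.0), *Hal* (-4.87) and *Hmox1* (-2.72). Among matrix and fibroblast genes they were *Col11a1* (-2.81), *Col12a1* (-3.62), *Col1a1* (-1.97), *Bgn* (-1.41), *Fn1* (-1.86), *Lox* (-2.13), *Cthrc1* (-2.04), *Tnc* (-2.76), *Timp1* (-1.94), *Mfap5* (-0.87), *Postn* (-1.17), *Acta2* (-1.26), *Ltbp2* (-2.79) and *Tgfb2* (-1.69). Among genes of the cell cycle, histones and growth they were *Nusap1* (-1.19), *Mcm6* (-1.67), *Top2a* (-2.09), *Mki67* (-2.43), *Ccnd1* (-0.74), *Peg10* (-2.23), *Myc* (-1.80), *Jun* (-1.14), *Junb* (-1.13), *Hist1h1b* (-2.27), *Hist1h3e* (-2.17), *Hist2h2bb* (-1.92) and *Hist1h4c* (-1.97). Among muscle, signalling and metabolic genes they were *Myh7* (-1.69), *Fhl1* (-1.08), *Synm* (-1.19), *Myof* (-1.91), *Lrp1* (-1.24), *Nkd2* (-1.02), *Kdr* (-0.80), *Slc16a3* (-2.13), *Slc2a1* (-2.07), *Eno2* (-2.25) and *Fasn* (-0.77). Of these genes *Il6* had no count in 7d-SHAM + 3 and *Myh3* none in 7d-MI + 3, so their fitted differences depend on the prior count and are not measured sizes.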

How the results depend on the processing

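The 834 higher and 888 lower genes became 1711 higher with no filter on low counts, 1753 higher with DESeq2, 1443 higher with limma-voom, 121 and 134 with the title number as a random effect, 118 and 43 with the 8 libraries alone, 218 and 210 against the 1078 pair, 3812 and 1787 against the 1103 pair, and 75 and 53 with the receptor level as a covariate. Upper-quartile scaling left 304 lower genes, and a log2 fold change of at least 1 left 109. Leaving out 1 library gave 379 to 1945 higher and 248 to 1646 lower genes. The cause was not tested. Counts of genes whose effect differed between the ages (2662) ran from 1981 to 3484. Of the 142 higher and 84 lower genes that passed against each pair, 67 and 67 kept their call with the title number as a random effect, 67 and 36 with the 8 libraries alone, and 60 and 38 with the covariate. For the 131 genes named here that pass, 2321 of 2873 values under alternatives kept direction and significance, 552 kept direction only and 0 changed sign. A change of sign was unlikely, because these genes passed the main test and the alternatives reuse the same libraries. By alternative, 63 of the 131 genes kept significance with the title number as a random effect, and 65 against the 1078 pair. With the 8 libraries alone 57 did and 73 did not, and with the covariate 46 did and 85 did not. Of the 418 values of other named genes 31 passed. Of 1407 list medians 159 moved by more than 1 SD between replicates. No paired analysis was possible because the labels give no replicate numbers; those used here follow the order of deposit and pair no libraries.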
